A study of Mus musculus with 6 samples.

Results

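Aldh1a3, Clic5 and Abca3 are 3 genes whose group mean was at least 10 times higher in Snai2-/- than in Control cells, in a table of 1285 mouse genes. They were picked by name for that difference, as candidates released from repression by Slug, the transcription factor that Snai2 encodes. All 3 were found in the table, and none was lost to a filter on low values applied here. The values that chose them are therefore given as a description, with no test, and they support no statement about repression.

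The cells were mesenchymal stem and progenitor cells (MSPCs) of the bone marrow, stromal cells that help to maintain blood stem cells, taken at 8 weeks of age. The groups were 3 libraries from Snai2-/- animals and 3 libraries from Control littermates, which the table's header calls Wildtype and whose exact genotype the labels do not give. Each library came from 2000 sorted cells that lacked CD45, Ter119 and CD31 and carried Nes-GFP, a green reporter under nestin regulatory sequences that both groups share. The labels do not say whether each library came from its own animal. The values are those of the authors' own comparison, with 1 least-squares mean per group on a normalized scale of unstated unit, their ratio, an unadjusted p and an adjusted p called the step-up false discovery rate (FDR). Values of single libraries were not analysed here, so no spread, error or depth stands beside any mean. In bulk samples of this kind, more cells of a type and more RNA per cell cannot be told apart.

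Slug is a zinc-finger protein of the Snail family that binds E-boxes, short sites in DNA of the form CANNTG, and mostly represses the genes nearby. The sites best known for Snail proteins read CAGGTG, or CACCTG on the other strand. Aldh1a3 encodes an aldehyde dehydrogenase that makes retinoic acid, a signal derived from vitamin A, from retinaldehyde. Clic5 encodes a protein of the chloride intracellular channel family that is found with ezrin at the actin-rich cortex under the cell membrane, as in podocytes. Abca3 encodes an ATP-driven transporter that loads phospholipids into lamellar bodies, the stores of lung surfactant. None of the 3 is a usual marker of marrow stroma.

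The deleted gene was examined first. Snai2 averaged 9.20 in Snai2-/- cells and 636 in Control cells by the authors' deposited table, 0.0145 of the Control mean. The lower mean thus belongs to the group labelled Snai2-/-.

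Aldh1a3 (GRCm38 chromosome 7, 66390890 to 66427517, minus strand) averaged 52.6 in Snai2-/- cells and 3.31 in Control cells by the authors' deposited table. The ratio was 15.9, a log2 ratio of 3.99, with an unadjusted p of 2.26e-05 and an FDR of 0.189 by the authors' deposited table. Only Snai2 had a smaller p there. Its longest annotated transcript has 13 exons and 3443 bases, and the annotation gives 4 protein-coding transcripts, which the gene-level mean does not separate.

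Clic5 (chromosome 17, 44188584 to 44280172, plus strand) averaged 28.5 in Snai2-/- cells and 2.43 in Control cells by the authors' deposited table. Its ratio was 11.7, a log2 ratio of 3.55, with an unadjusted p of 5.79e-05 and an FDR of 0.199 by the authors' deposited table. The annotation holds 1 protein-coding transcript of 6 exons and 5862 bases. It also holds 1 transcript with a retained intron.

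Abca3 (chromosome 17, 24351950 to 24410201, plus strand) averaged 32.5 in Snai2-/- cells and 3.22 in Control cells by the authors' deposited table. The ratio of 10.1, a log2 ratio of 3.34, came with an unadjusted p of 0.000112 and an FDR of 0.199 by the authors' deposited table, the same FDR as for Clic5. The longest of its 3 protein-coding transcripts has 33 exons and 6476 bases. The end of Abca3 is overlapped by a listed gene on the other strand, D330041H03Rik, and their reads cannot be told apart there. Clic5 and Abca3 lie on the same chromosome, with starts 19.8 Mb apart.

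**Figure D1:**
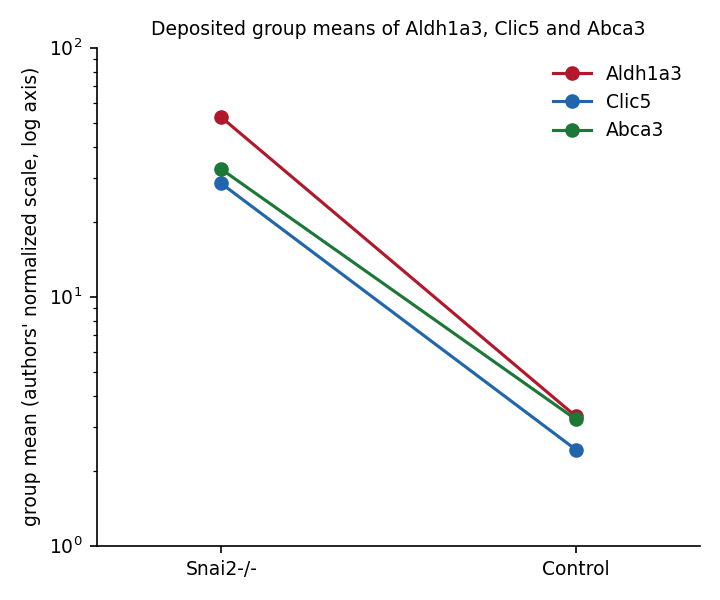
Group means of Aldh1a3, Clic5 and Abca3 in Snai2-/- cells (left) and Control cells (right), on the authors' normalized scale with a log axis. Each point is 1 deposited group mean of 3 libraries with no error, and the lines join the means of a gene, which lay between 28.5 and 52.6 in Snai2-/- cells and between 2.43 and 3.31 in Control cells.

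All 3 genes were thus listed as higher in Snai2-/- cells at an unadjusted p below 0.05, as were 631 genes or 3.77% of the 16718 tested. At an FDR below 0.05 none of the 3 passed, and 0 genes of the table did (0%), although all 1285 listed genes had an unadjusted p below 0.05. At an FDR below 0.2 all 3 passed among 14 genes higher in Snai2-/- cells, 0.0837% of those tested. These shares come from the comparison that chose the genes, and nothing is read from them. The ratios of the 3 genes were within 1.57 times of each other, and whether they differ cannot be tested without values of single libraries.

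Markers of other cells were listed in the same comparison. The marker lists were drawn up with earlier results of these data known, so the counts are given as a description only. Of all genes tested, 7.69% were listed, 3.77% as higher and 3.91% as lower. Of 15 osteoblast markers 8 were listed, 7 higher and 1 lower, and the means of the listed genes summed to 24141 in Snai2-/- and 6053 in Control cells by the authors' deposited table. Col1a1 and Spp1 made up 22501 of that sum in Snai2-/- and 5476 in Control cells, and the other 6 summed to 1640.2 in Snai2-/- and 576.1 in Control cells, again by the authors' deposited table. The lower one was Phex, a regulator of phosphate and mineral in bone, which averaged 92.2 in Snai2-/- cells and 223.2 in Control cells by the authors' deposited table. Of 10 chondrocyte markers 4 were listed and 4 were higher, with sums of 707 in Snai2-/- and 145.9 in Control cells by the authors' deposited table. Of 14 neutrophil and monocyte markers 7 were listed and 7 were higher, with sums of 820.1 in Snai2-/- and 186.4 in Control cells by the authors' deposited table. Their part in the values of Aldh1a3, Clic5 and Abca3 was not tested. Of 10 epithelial and alveolar markers, of cells in which Abca3 is best known, and of 9 lymphocyte markers, none had a row.

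A ratio of at least 10 took 45 of the 1285 listed genes, or 3.5%, so 42 other genes met the same limit. Aldh1a3 ranked 28 of the 1285 by ratio, Clic5 ranked 36 and Abca3 ranked 44. Just inside the limit stood Spock2, Abca3 and Ltf, with ratios of 10.1, 10.1 and 10.4 by the authors' deposited table. Just outside it stood AA467197, Pla2g5 and Bmp3, with ratios of 9.70, 9.65 and 9.57 by the authors' deposited table. Aldh1a3, Clic5 and Abca3 were the 3 genes with a ratio of at least 10 among the 10 smallest p of the table. Ratio and p both come from the comparison that chose these genes, so nothing is read from that standing.

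Most genes past the limit had very low means. In 3 of the 45 the Control mean was 0.0001, a placeholder of unstated origin, so their ratios carry no meaning. The median Control mean of the other 42 was 0.132 on the authors' scale, and 8 of them had one of at least 1. Aldh1a3, Clic5 and Abca3 were among these 8. With 1 added to both means the ratios of the 3 genes were 12.4, 8.59 and 7.95, so Clic5 and Abca3 then fell under the limit, and 3 genes of the table, Aldh1a3, Shisa3 and the cartilage matrix gene Chad, remained at or above it.

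**Figure D2:**
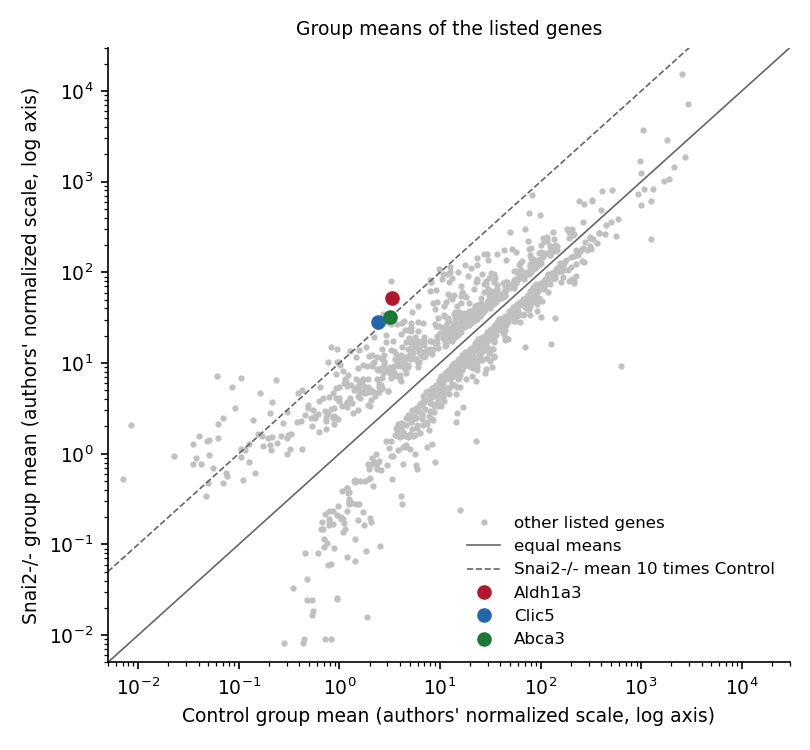
Snai2-/- group mean (vertical) against Control group mean (horizontal) of the listed genes, both on the authors' normalized scale with log axes and without the 7 genes that have a mean of 0.0001. The gap along the line of equal means comes from the table listing only genes with p below 0.05, and the 3 coloured genes sit on or above the dashed line where the Snai2-/- mean is 10 times the Control mean, to the right of most other genes above that line.

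The genes with the most similar means were found by their distance from each gene in log2 Snai2-/- mean and log2 Control mean. Over 2 group means this is a weak measure, and the means are not known to be per length. Nearest to Clic5 were Pla2g5, a secreted phospholipase (distance 0.27), Atp6v0e2, a subunit of the proton pump of acidic organelles (0.33), and Tspan11, a tetraspanin (0.44). The same 3 genes were nearest to Abca3, at distances of 0.24, 0.27 and 0.28. Nearest to Aldh1a3 were Shisa3 (0.60), Atp6v0e2 (0.66) and Abca3 itself (0.69). Atp6v0e2 averaged 34.9 in Snai2-/- cells and 2.71 in Control cells by the authors' deposited table, a ratio of 12.9. Shisa3 averaged 79.5 in Snai2-/- cells and 3.25 in Control cells by the authors' deposited table, a ratio of 24.5.

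Gene starts were then compared in sequence, a feature that the choice of the genes did not use. RefSeq promoter sequences (GRCm38.p6) were held for Clic5 and Abca3, and not for Aldh1a3. The 250 bases before the start are shown for both in lower case, 5′ to 3′ on the strand of the gene, with every CANNTG in capitals. Abca2, the other ABCA transporter gene that was listed as higher, is shown beside them. The windows are chr17:24351773-24352022 for Abca3, chr17:44188322-44188571 for Clic5 and chr2:25428349-25428598 for Abca2, each on the plus strand.
Abca3: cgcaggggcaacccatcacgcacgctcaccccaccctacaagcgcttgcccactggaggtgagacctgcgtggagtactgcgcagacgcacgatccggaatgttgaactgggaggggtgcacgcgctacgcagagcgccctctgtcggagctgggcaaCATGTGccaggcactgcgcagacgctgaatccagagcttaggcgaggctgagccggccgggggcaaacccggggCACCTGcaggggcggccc
Clic5: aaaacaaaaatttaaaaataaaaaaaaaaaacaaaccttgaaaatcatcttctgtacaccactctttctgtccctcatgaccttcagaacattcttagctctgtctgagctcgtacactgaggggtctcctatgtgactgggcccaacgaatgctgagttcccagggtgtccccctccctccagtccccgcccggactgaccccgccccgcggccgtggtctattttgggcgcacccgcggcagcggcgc
Abca2: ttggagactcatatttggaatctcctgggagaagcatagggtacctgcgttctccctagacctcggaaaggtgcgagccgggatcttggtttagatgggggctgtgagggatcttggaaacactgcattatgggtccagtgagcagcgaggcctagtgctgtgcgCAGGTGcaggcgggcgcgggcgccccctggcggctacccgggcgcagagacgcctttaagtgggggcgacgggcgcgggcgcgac
The Abca3 window held 1 CACCTG, from 18 to 13 bases before the start, and 1 further E-box, CATGTG, from 92 to 87 bases before it. In the Clic5 window neither strand held CANNTG. The Abca2 window held 1 CAGGTG, from 85 to 80 bases before the start. These starts are those of RefSeq. For Abca3 the RefSeq start, 24352023, lies 73 bases inside the gene as GENCODE draws it from 24351950, so the CACCTG lies before the RefSeq start and within the GENCODE gene, whose first bases come from a transcript with a retained intron. For Clic5 and Abca2 the RefSeq start lies 12 and 104 bases before the GENCODE one. GC content was 67.6% for Abca3, 52.8% for Clic5 and 63.2% for Abca2, against a median of 52.4% over all promoters.

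CAGGTG or CACCTG occurred in 5657 of 32851 RefSeq promoters over the same 250 bases, or 17.2%, and CANNTG, which includes it, in 66.2%. The share was 34.5% (10 of 29 promoters) for genes at least 10-fold higher in Snai2-/- cells, Abca3 among them. It was 22.0% (134 of 609) for all listed genes that were higher and 13.8% (85 of 616) for those that were lower. Median GC content in these groups was 56.4%, 60.0% and 58.8%. In the same order CANNTG occurred in 69.0%, 59.8% and 56.7%, against 66.2% of all promoters. For any E-box over 250 bases the genes at least 10-fold higher thus stood close to all promoters, and above the 58.2% of all listed genes. Over a window of 300 bases CANNTG occurred in 82.8% of their promoters (24 of 29), against 72.3% of all promoters. Over 250 bases again, and in the same order, ACAGGTG or CACCTGT occurred in 10.3%, 5.6% and 3.1%, against 4.0% of all promoters. The 609 and 616 promoters belonged to 469 and 472 genes, and each promoter was counted on its own. Promoters were held for 27 of the 45 genes past the limit. These shares describe letters in short windows, and no test of the differences was made. A match is not evidence that Slug binds there, and a window without one, as in Clic5, says nothing about sites elsewhere in the gene.

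**Figure D3:**
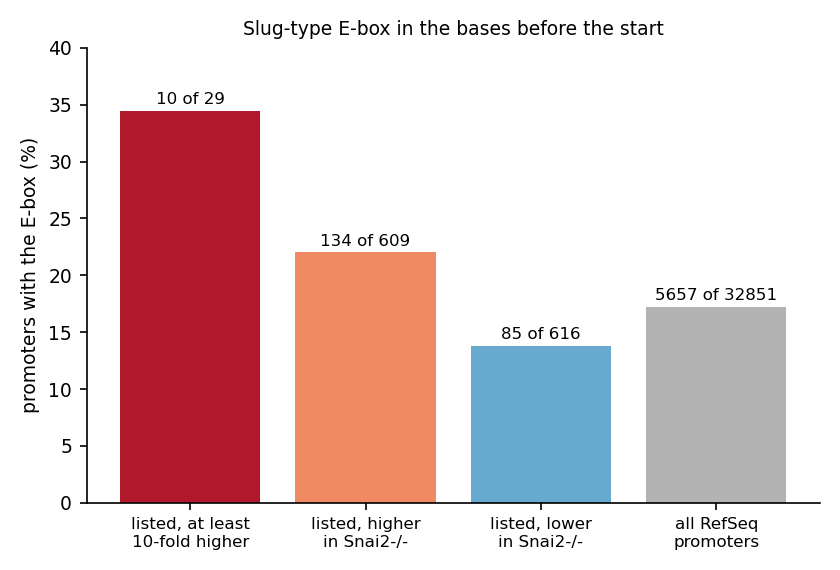
Share of promoters, in percent, with CAGGTG or CACCTG in the 250 bases before the start. The bars give, from left to right, listed genes at least 10-fold higher, all listed genes higher and all listed genes lower in Snai2-/- cells. The last bar gives all RefSeq promoters. In that order the bars stand at 34.5%, 22.0%, 13.8% and 17.2%, with the number of promoters printed above each.

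The pathway of Aldh1a3 was followed from synthesis to response. Of 23 genes of retinoid synthesis and uptake, 2 were listed, Aldh1a3 as higher and Adh7 as lower. Adh7, an alcohol dehydrogenase that can oxidize retinol, averaged 12.8 in Snai2-/- cells and 31.0 in Control cells by the authors' deposited table, a ratio of 0.411. Aldh1a1 and Aldh1a2, which make retinoic acid as Aldh1a3 does, had no row. The retinol dehydrogenase gene Rdh10 and the uptake receptor gene Stra6 had none either. A gene without a row had a p of 0.05 or more, was not tested, was not analysed here or stood under another symbol.

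Retinoic acid acts by binding nuclear receptors, and the gene of 1 of these, Rarb, is itself a textbook target that carries a response element at its promoter. Rarb averaged 2.81 in Snai2-/- cells and 14.6 in Control cells by the authors' deposited table, 0.192 of the Control mean. The unadjusted p was 0.00973 and the FDR 0.451 by the authors' deposited table, so it did not pass FDR 0.05. The difference was thus opposite in direction to that of Aldh1a3. The 250 bases before its start (chr14:16575477-16575726, minus strand) are shown because they hold that element, with the match in capitals (GTTCA and AGTTCA with any 5 bases between them).
Rarb: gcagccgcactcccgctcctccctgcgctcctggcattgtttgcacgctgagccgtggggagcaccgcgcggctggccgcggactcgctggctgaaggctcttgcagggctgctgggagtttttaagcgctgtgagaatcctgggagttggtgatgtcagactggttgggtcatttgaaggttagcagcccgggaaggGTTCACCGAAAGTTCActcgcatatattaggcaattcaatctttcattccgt
The match ran from 52 to 37 bases before the start. On either strand it occurred in 9 of the 32851 RefSeq promoters over the same length, or 0.0274%. Of the 941 listed genes with a promoter sequence, Rarb was the 1 whose window held it. The half-sites searched for are those of the Rarb element itself, so the match in Rarb was fixed in advance. Response elements with other half-sites or spacing were not counted, and the share does not cover them.

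Of 17 genes for retinoic acid binding, receptors and clearance, 2 were listed, 1 higher and 1 lower. Besides Rarb this was Fabp5, a fatty acid binding protein that can carry retinoic acid, with a ratio of 1.62 by the authors' deposited table. Of 19 target genes 2 were listed and 2 were lower, Rarb and Meis2, a homeobox gene, which had a ratio of 0.644 by the authors' deposited table. Cyp26a1, Cyp26b1 and Dhrs3, targets that clear or limit retinoic acid, had no row. Of 20 aldehyde dehydrogenase genes 4 were listed, 2 higher and 2 lower. Aldh1l2, a mitochondrial enzyme of folate metabolism, averaged 11.6 in Snai2-/- cells and 1.46 in Control cells by the authors' deposited table, a ratio of 7.95. Aldh3a2 and Aldh7a1, which clear fatty and other aldehydes, had ratios of 0.733 and 0.682 by the authors' deposited table.

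Among the relatives and partners of Clic5, Clic5 was the 1 listed gene of the 5 in its family. Clic1, Clic3, Clic4 and Clic6 had no row. Of 26 chloride channel genes of other families 1 was listed, Best1, with a ratio of 0.699 by the authors' deposited table. Of 16 genes for ezrin, radixin, moesin and their partners 2 were listed and 2 were higher. Ezr, which encodes ezrin, the linker between membrane proteins and actin, averaged 54.2 in Snai2-/- cells and 16.3 in Control cells by the authors' deposited table. Its ratio was 3.33, with an unadjusted p of 0.000583 and an FDR of 0.271 by the authors' deposited table. Cd44, a surface receptor that ezrin can tether, had a ratio of 1.61 by the authors' deposited table. Radixin (Rdx) and moesin (Msn) had no row. The Ezr promoter window, like that of Clic5, held no CANNTG. Windows without it are common, since CANNTG occurred in 66.2% of all promoters and 58.2% of those of listed genes over the same 250 bases.

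Among the relatives of Abca3, 3 of 16 ABCA genes were listed, 2 higher and 1 lower. Abca2, a lipid transporter of endosomes and lysosomes known from myelin-forming cells, averaged 11.4 in Snai2-/- cells and 2.64 in Control cells by the authors' deposited table. That is a ratio of 4.32, with an unadjusted p of 0.000295 and an FDR of 0.242 by the authors' deposited table. Abca9 averaged 39.7 in Snai2-/- cells and 74.5 in Control cells by the authors' deposited table, a ratio of 0.533. Abca1, which exports cholesterol, had no row, nor had Abca17, whose annotated start lies 882 bases from that of Abca3 on the opposite strand.

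Of 35 other ABC transporter genes 3 were listed, 2 higher and 1 lower. The sterol transporter gene Abcg1 averaged 3.86 in Snai2-/- cells and 0.994 in Control cells by the authors' deposited table, a ratio of 3.88. Abce1, which recycles ribosomes, had a ratio of 1.28, and the peptide transporter gene Tap1 a ratio of 0.750, by the authors' deposited table. Of 15 genes for surfactant and lamellar bodies Abca3 was the 1 listed, so Sftpb, Sftpc, Napsa and Lamp3, which work with it in the lung, had no row. Of 25 Snail-family, epithelial-mesenchymal transition and epithelial target genes 2 were listed, Snai2 itself and the tight-junction gene Tjp1, with a ratio of 1.67 by the authors' deposited table. Cdh1, a well-known target of Slug, had no row.

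**Figure D4:**
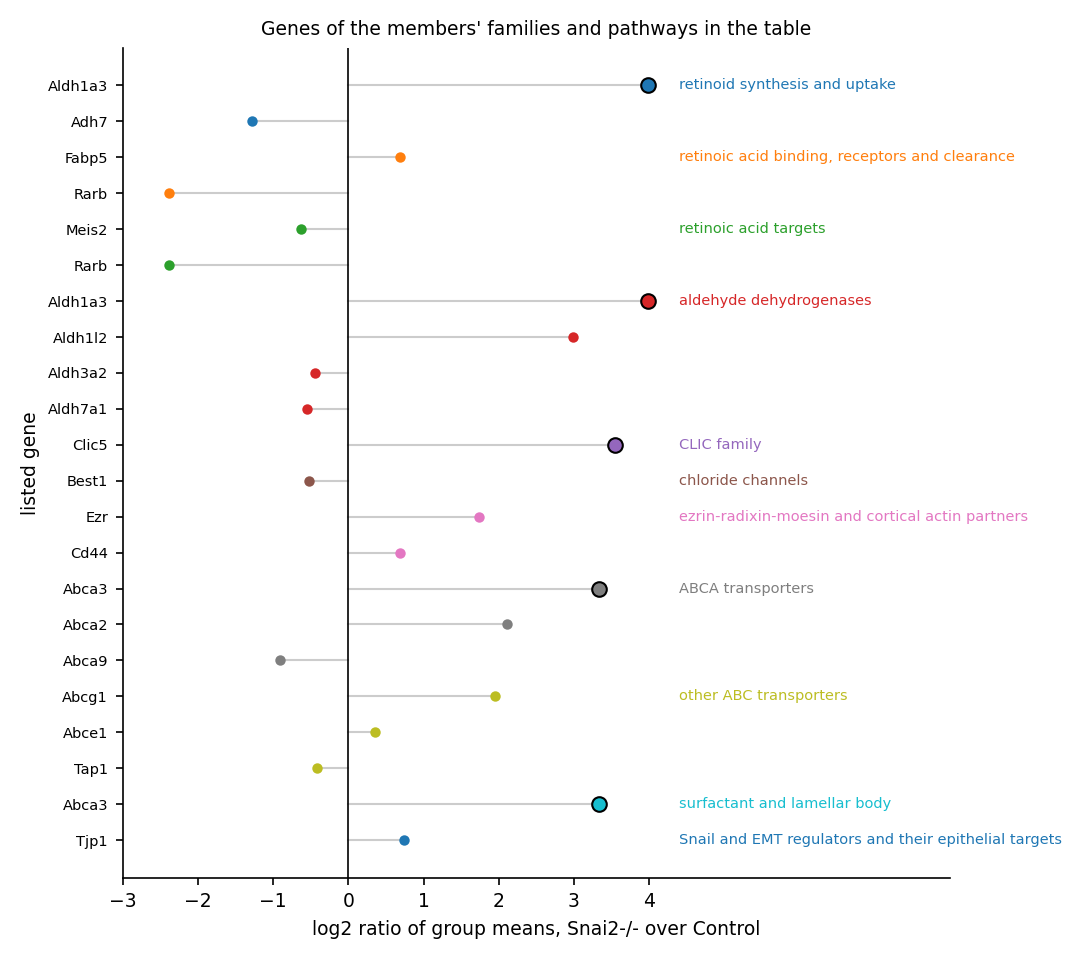
The log2 ratio of Snai2-/- over Control group means (horizontal) for each listed gene of the family and pathway lists, Snai2 left out. Colours mark the lists, and a gene on several lists is drawn once in each. Outlined points are Aldh1a3, Clic5 and Abca3, at 3.99, 3.55 and 3.34, to the right of every other gene drawn. These 3 were chosen for a ratio of at least 10, so that place follows largely from the choice. Rarb lies furthest to the left at -2.38.

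Over these 11 lists together, 16 of the 201 genes other than Snai2 and the 3 chosen genes were listed, or 7.96%, 8 higher and 8 lower. Of all genes tested, 7.69% were listed, 3.77% as higher and 3.91% as lower. No other gene of the lists had a ratio of at least 10, and 0 passed FDR 0.05.

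Neighbours on the chromosome were counted within 1 Mb of each start. Their counts stand beside the 7.69% of all genes tested that were listed, 3.77% as higher and 3.91% as lower. Whether any neighbourhood differs from these shares was not tested. Of 16 other protein-coding genes around Aldh1a3, 4 were listed and 4 were higher. They were Pcsk6, a proprotein convertase (ratio 4.85), Tarsl2 (2.86), Tjp1 (1.67) and Tm2d3 (1.53) by the authors' deposited table, all 565.8 to 899.7 kb beyond the start in the reading direction of Aldh1a3. The nearest, Lrrk1, starts 39.2 kb away and had no row. Around Clic5 1 of 13 was listed (7.69% of these 13), the neighbouring Enpp5, with a ratio of 1.51 by the authors' deposited table.

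The region of Abca3 is dense in genes, and 13 of 96 protein-coding neighbours were listed (13.5%), 5 higher and 8 lower. Igfals, a carrier of insulin-like growth factors, and Baiap3 had ratios of 5.09 and 5.84 by the authors' deposited table, whereas the cell-cycle kinase gene Pkmyt1 and the proton pump subunit gene Atp6v0c had ratios of 0.425 and 0.596 there. Among the 5 counted as higher, Prss41 had a Control mean at the placeholder and has no usable ratio. The non-coding gene D330041H03Rik (chromosome 17, 24404649 to 24414542, minus strand) overlaps the last 5553 bases of Abca3 and is read in the opposite direction. It averaged 5.39 in Snai2-/- cells and 1.80 in Control cells by the authors' deposited table, 2.99 times the Control mean. The library kits named in the labels do not mark strand, so reads in the overlap cannot be told apart, and the values of both genes are uncertain to that extent. No listed gene overlaps Aldh1a3 or Clic5.

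**Figure D5:**
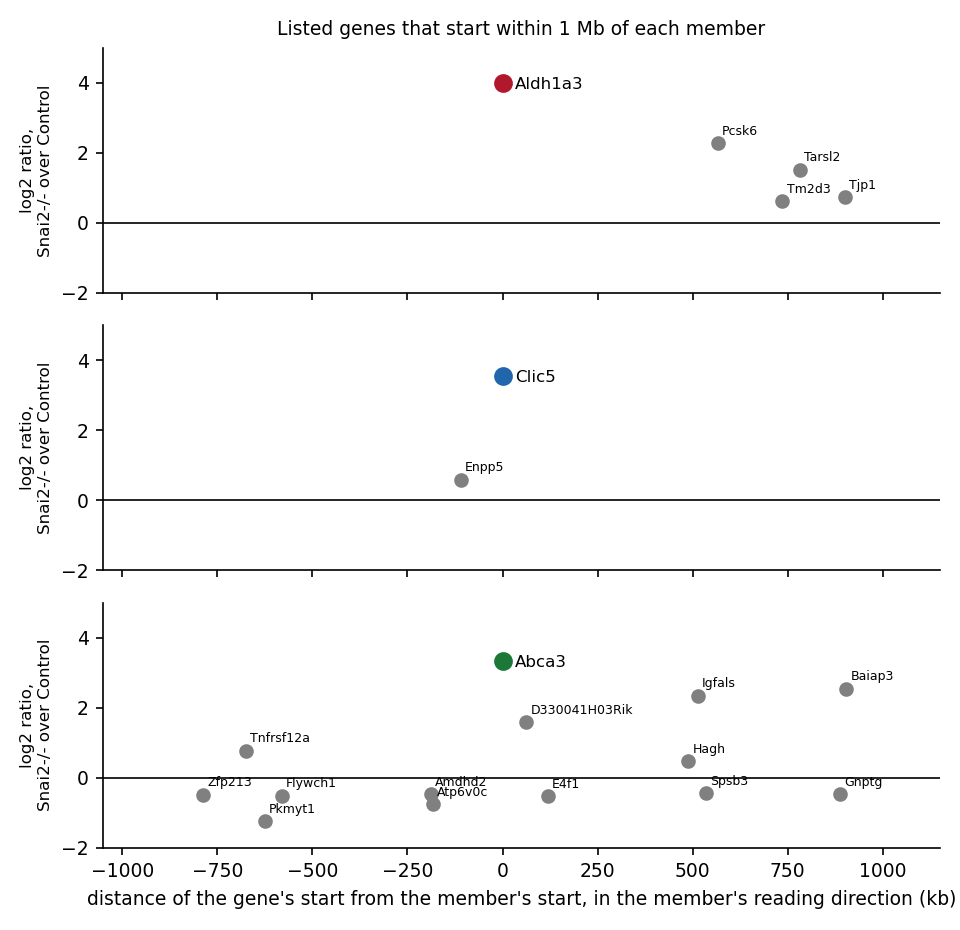
The log2 ratio of Snai2-/- over Control group means (vertical) of listed genes against the distance of their start from that of Aldh1a3 (top), Clic5 (middle) and Abca3 (bottom), in kb along the reading direction of each. Grey points are neighbours, without Prss41, whose Control mean is at the placeholder. The coloured genes, with log2 ratios of 3.99, 3.55 and 3.34, lie above all their listed neighbours drawn. They were chosen for a ratio of at least 10, so this place follows largely from the choice.

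The remaining marker lists were drawn up in the same way and stand beside the same 7.69% of all genes tested. Of 7 general leukocyte markers 1 was listed, Cd48, as higher, and of 9 erythroid markers 1, Car1, as higher. Vwf was the 1 listed of 6 megakaryocyte markers and lower, and of 10 endothelial markers 2 were listed, Flt4 as higher and Vwf as lower. Of 15 MSPC markers 1 was listed, the transcription factor gene Ebf1, which averaged 210.3 in Snai2-/- cells and 362.5 in Control cells by the authors' deposited table. The other 14, Lepr and Cxcl12 among them, had no row, so the labelled cell type could not be checked against their levels. Which markers are at 0 cannot be read from a table of listed genes.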

How the data were processed

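The 6 libraries were grouped by their titles. Per the labels' protocols, cDNA was made with SMART-Seq v4 and libraries with Nextera XT. Named in the submitters' processing notes, without roles, are the build mm10 and the tools edgeR 3.12.0, HTSeq and Trim Galore. Aligner, annotation and test: not given in the sources used here. Mutant in the header was taken as Snai2-/-.

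The authors deposited an unadjusted p-value, a step-up FDR, a ratio and a signed fold change per gene, per the file headers. The deposited means and totals are a normalized signal, with 0 whole totals among 1285. The table holds only genes with p below 0.05, so listed ratios are biased away from 1. The number tested, 16718, was recovered from p, FDR and rank, and the FDR recomputed from it matched the deposited one within 0.0225%. The recovery was right in 5 of 5 simulated tables. These were built with the same FDR formula, so they check the code and not the deposited values. Depth per library, and with it the precision of each mean, is unknown.

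No model was fitted here. The 3 genes and the 21 gene lists were chosen with earlier results of these data known. Genes named are Snai2, the 3 chosen genes, listed genes of the 11 family and pathway lists, the 3 genes nearest in means to each (predicted models and Rik clones left out), the 3 just inside and just outside a ratio of 10, listed genes starting within 1 Mb, and markers. Genes named as having no row, and the promoters of Abca2, Ezr and Rarb, were chosen after values were seen. Positions (1-based) were taken from GENCODE M21 on GRCm38, which mm10 denotes, where 1247 symbols matched 1 gene. RefSeq promoters, 32851 from 27025 genes, were cut to the 250 bases before the start. Motifs were searched on both strands. Python 3.11.15, numpy 2.4.6, pandas 2.3.3 and matplotlib 3.10.9 were used.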

Additional observations from a re-analysis of the deposited data

How the results depend on the processing

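Pseudocounts added to both means cannot turn a ratio round, and the median ratio of the rows was below 1, so these alternatives bear on the size of the 3 ratios and not on their direction. For Aldh1a3 the log2 ratio was 3.99 as deposited and 3.95, 3.63 and 2.79 with pseudocounts of 0.1, 1 and 5 on both means. For Clic5 it was 3.55 as deposited and 3.50, 3.10 and 2.17. For Abca3 it was 3.34 as deposited and 3.30, 2.99 and 2.19. Dividing by the median ratio of all rows (log2 -0.36) gave 4.34 for Aldh1a3, 3.91 for Clic5 and 3.69 for Abca3. The table holds listed genes only, so that median is no estimate of a shift over all genes.

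The 45 genes at a ratio of at least 10 became 129 at a limit of 5, 22 at a limit of 20, 3 with a pseudocount of 1, and 21 with an unadjusted p below 0.01. The count was 36 with a Snai2-/- mean of at least 1, and 42 without placeholder means, an alternative chosen after seeing the data. At a limit of 20 none of the 3 genes remains. Of the promoters held, 1 had CAGGTG or CACCTG in 300 bases, 1 had it in the 250 bases before the start, 1 had any CANNTG, and 0 had ACAGGTG or CACCTGT. No paired analysis was possible because only a mean per group was used here. Left-out replicates, other normalizations, low-count filters and DESeq2 were not run for the same reason, so whether 1 library decides a value was not tested.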
